A study of Mus musculus with 7 samples.

Results

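Prostaglandin synthesis was followed through 8 genes of the enzyme chain in bulk RNA-seq of mouse brain samples labelled as projection neurons. The genes were Pla2g4a, the cyclooxygenase genes Ptgs1 and Ptgs2, the terminal synthase genes Ptges, Ptges2, Ptges3 and Ptgds, and Hpgd, which encodes a breaking-down enzyme. They were picked by name from the 55367 genes of the deposited count table, and the CRS and noCRS counts of these same libraries were already known when the set was put together. Values of the members are therefore a description: no p-value is given for them, and where a fit over all genes called a member, nothing is read from the call. Their intervals are descriptions too, and nothing is read from whether one includes no change. All 8 passed the filter on low counts, as did 17833 genes of the table.

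The libraries fell into 2 groups, 4 labelled CRS and 3 labelled noCRS, and the series title places them under chronic stress. All 7 came from C57BL/6J mice labelled P90, and total RNA is labelled as from prefrontal neurons with axons in the lateral habenula (mPFC-LHB). The labels give no further treatment, sex or genotype, and no method of marking or isolating the neurons. Whether libraries stand for separate animals is also unstated, so errors and p-values measure the spread between these libraries, which may be technical. The CRS libraries held 32346275 to 39740623 counts, and the noCRS libraries 28677703 to 39965667 counts. Values below are CPM, counts scaled to a common library size after TMM normalisation.

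The labelled cell type was checked against its markers. All 10 excitatory cortical neuron markers had counts in each CRS library, with summed levels of 2608 to 4118 CPM, whereas 9, 5 and 6 of the 10 had counts in noCRS replicates 1, 2 and 3, with summed levels of 123 to 257 CPM. Most of each sum was Snap25, which is a gene of neurons in general and not of excitatory ones alone. Slc17a7, the vesicular glutamate transporter of cortical neurons, had 0 counts in noCRS replicates 2 and 3. Oligodendrocyte markers summed to 26988 to 53072 CPM in CRS and 32566 to 37697 CPM in noCRS, and astrocyte markers to 6458 to 13272 CPM in CRS and 11041 to 14488 CPM in noCRS. Each of these glial sums was above the excitatory neuron sum in all 7 libraries, which goes against the label, most of all in noCRS, so the samples are named below by their groups. In such bulk samples, fewer cells of a type and less RNA per cell cannot be told apart.

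Prostaglandins are lipid signals made on demand from arachidonic acid, which cytosolic phospholipase A cuts from membranes. A cyclooxygenase turns arachidonic acid into an unstable intermediate, and a terminal synthase turns that intermediate into one particular prostaglandin. In brain, the inducible cyclooxygenase of Ptgs2 is known from cortical and hippocampal excitatory neurons, where it responds to synaptic activity, the constitutive enzyme of Ptgs1 is known from microglia, and the prostaglandin D synthase of Ptgds is known from oligodendrocytes and the meninges.

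The proximal promoters of both cyclooxygenase genes and of Ptgds, the most abundant member, are shown because the results turn most on these 3 members. Sequences are from RefSeq on GRCm38.p6, run 5′ to 3′ on the strand of the gene, and hold 250 bases before and 50 from the annotated start. Capitals mark matches, on either strand, to TGACGTCA or its 5-letter part TGACG (cyclic AMP response element), CACGTG (E-box), TTGCGCAA (C/EBP palindrome), TGANTCA (AP-1) and the core promoter letters TATAAA. The motif list was drawn up with the sequences in view. The Ptgs2 window is chr1:150099781-150100080 (+), the Ptgs1 window chr2:36230176-36230475 (+) and the Ptgds window chr2:25469700-25469999 (-).
Ptgs2: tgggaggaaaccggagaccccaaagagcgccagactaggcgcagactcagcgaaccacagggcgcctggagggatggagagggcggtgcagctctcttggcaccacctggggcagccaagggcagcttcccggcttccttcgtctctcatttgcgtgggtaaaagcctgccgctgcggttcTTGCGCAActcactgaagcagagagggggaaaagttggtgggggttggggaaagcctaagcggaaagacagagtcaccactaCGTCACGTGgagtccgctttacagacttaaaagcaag
Ptgs1: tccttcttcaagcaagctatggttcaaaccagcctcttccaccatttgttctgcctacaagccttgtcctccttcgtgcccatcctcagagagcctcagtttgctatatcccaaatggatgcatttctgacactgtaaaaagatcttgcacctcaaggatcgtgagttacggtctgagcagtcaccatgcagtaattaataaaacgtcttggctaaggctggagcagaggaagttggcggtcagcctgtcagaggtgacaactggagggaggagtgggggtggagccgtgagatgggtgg
Ptgds: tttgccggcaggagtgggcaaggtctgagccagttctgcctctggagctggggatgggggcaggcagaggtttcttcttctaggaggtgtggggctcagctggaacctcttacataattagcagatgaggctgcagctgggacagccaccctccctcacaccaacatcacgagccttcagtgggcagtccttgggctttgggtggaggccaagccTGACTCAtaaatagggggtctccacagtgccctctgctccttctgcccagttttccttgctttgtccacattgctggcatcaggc
The Ptgs2 window held TTGCGCAA at positions -69 to -62 from the start, a motif in 0.183% of 32851 promoter windows of this length. It also held CGTCA, the other strand of TGACG, at 14 to 18, and CACGTG at 17 to 22, which overlap. TGACG was in 20.8% of all windows and CACGTG in 7.15%. The Ptgds window held TGACTCA at -35 to -29, a match to TGANTCA, which was in 7.81% of windows. The Ptgs1 window held no match to any of these motifs. A match is a run of letters and shows no binding, and a missing match says only that the letters are not in this window.

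Ptgs2, the inducible cyclooxygenase (chromosome 1, 150100031 to 150108227, plus strand), was detected in every CRS library and in no noCRS library. Its counts were 297, 819, 489 and 537 in CRS replicates 1 to 4, against 0, 0 and 0 in noCRS replicates 1 to 3. The levels were 8.97, 25.6, 16.1 and 14.0 CPM in CRS, a mean of 16.2 ± 6.94 CPM (SD, n = 4), and 0 CPM in the 3 noCRS libraries, where 3 counts would have been 0.0724 to 0.0963 CPM. The groups did not overlap, and within CRS the highest library, replicate 2, stood 2.85-fold above the lowest, replicate 1. Against a floor of 3 counts over the whole noCRS group, the CRS mean was at least 566-fold higher. This bound allows for counting error alone, as reads made by PCR are not separate molecules.

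**Figure D1:**
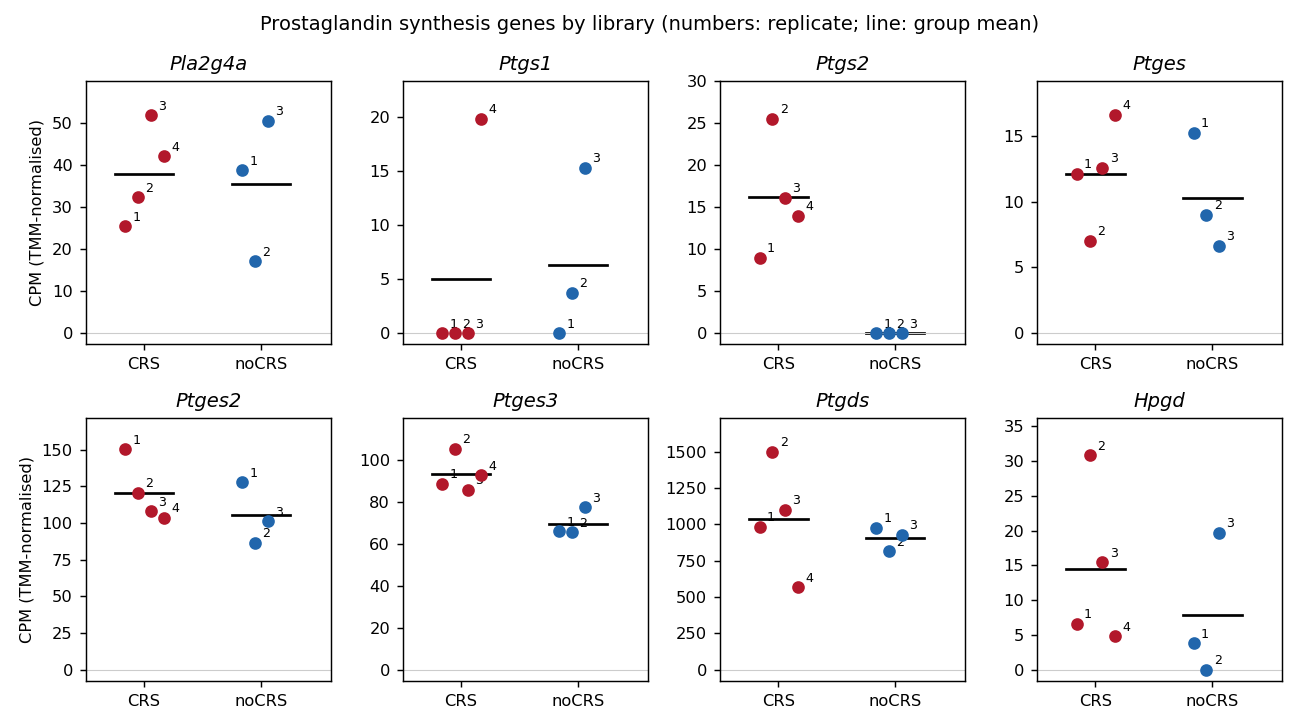
TMM-normalised CPM of each of the 8 genes, with the 4 CRS libraries (red) left of the 3 noCRS libraries (blue), replicate numbers beside the points and a line at the group mean. Ptgs2 lay between 8.97 and 25.6 CPM in CRS and at 0 in noCRS, Ptgs1 was at 0 in 4 of the 7 libraries, and the Ptgds, Ptges, Ptges2 and Pla2g4a groups overlapped.

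Counts of 0 were common in these libraries: 4770 of the tested genes, or 26.7%, lacked counts in 1 library or more. A gene at 0 in every noCRS library and present in every CRS library was rarer, 109 genes or 0.611% of those tested, and Ptgs2 ranked 13 among them by mean CRS level. The opposite pattern, 0 in every CRS library and present in every noCRS library, was seen in 17 genes, or 0.0953%. Adjusted over all genes (edgeR quasi-likelihood fit, Benjamini-Hochberg), 1 of the 8 members, Ptgs2, was past the threshold of 0.05, where 2.3% of all tested genes were called and 2.07% were called as higher. As the set was chosen with this comparison known, nothing is read from that count.

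Excitatory neuron markers moved with Ptgs2 between the groups. All 10 had positive fold changes and 5 of them were called as higher, beside 49.2% and 2.07% of all tested genes. Among the 5 were Nrgn (201 ± 38.9 CPM in CRS and 13.6 ± 1.36 CPM in noCRS) and the general neuronal gene Snap25 (2747 ± 611 CPM and 158 ± 57.7 CPM, SD, n = 4 and 3). Inhibitory neuron markers summed to 161 to 678 CPM in CRS and 36.2 to 43.8 CPM in noCRS. Most of that sum was Sst and Gad1. The CRS libraries lay above the noCRS libraries in 3 of 6 tested genes of the list, beside 10.1% of all tested genes. Pvalb averaged 2.17 CPM in CRS and 2.15 CPM in noCRS. The part of these neuron markers in the Ptgs2 difference was not tested. Within CRS the library with the most Ptgs2, replicate 2, also had the highest sums of both neuron lists. Replicate 1, with the least Ptgs2, had the second lowest excitatory sum and the lowest inhibitory sum. Dlx1, of the inhibitory list, was lowest within CRS in replicate 2 (3.06 CPM). Most of the excitatory sum was Snap25, at 2460, 3503, 2090 and 2933 CPM in CRS replicates 1 to 4. Other genes of that list did not all share that order. Nrgn was highest in replicate 2 and Neurod6 in replicate 4, while Sv2b was lowest in replicate 2 (102 CPM).

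**Figure D2:**
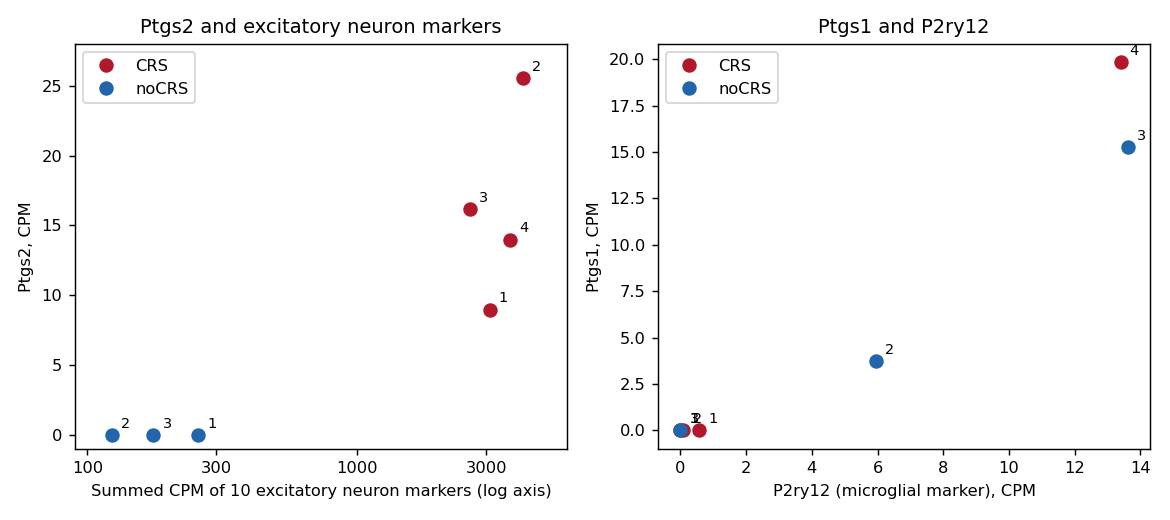
Left, Ptgs2 CPM against the summed CPM of 10 excitatory neuron markers on a log axis; right, Ptgs1 CPM against CPM of the microglial gene P2ry12; red points are CRS and blue points noCRS libraries, numbered by replicate. Most of each marker sum is the general neuronal gene Snap25. On the left the groups lie apart on both axes, with marker sums of 2608 to 4118 CPM in CRS and 123 to 257 CPM in noCRS; on the right the libraries with Ptgs1 are CRS replicate 4 and noCRS replicates 2 and 3, and the other libraries lie together near 0.

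The genes most like Ptgs2 across the 7 libraries, by Pearson correlation of log2 CPM among 11375 genes, were Ighm (r = 0.9997), Ccn2 (r = 0.999), Ipcef1 (r = 0.998) and Scg2 (r = 0.997). Ighm is the immunoglobulin mu heavy chain constant region, Ccn2 a secreted matrix protein, and Scg2 a granin of secretory vesicles. The first 3 had 0 counts in every noCRS library, so their likeness is largely the split between the groups. With group means removed the correlations were 0.989, 0.932, 0.907 and 0.722. As Ptgs2 was at 0 in every noCRS library, these rest on how the 4 CRS libraries differ. The genes were also picked from 11375 on these same values, so nothing is read from the correlations.

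Ptgs1, the constitutive cyclooxygenase (chromosome 2, 36230426 to 36252272, plus strand), was present in some libraries of each group. It had 0, 0, 0 and 761 counts in CRS replicates 1 to 4, against 0, 116 and 496 counts in noCRS replicates 1 to 3. These were 0, 0, 0 and 19.8 CPM in CRS and 0, 3.72 and 15.3 CPM in noCRS, so that the groups overlapped and 1 library carried the whole CRS value. The means were 4.96 ± 9.91 CPM in CRS (SD, n = 4) and 6.33 ± 7.97 CPM in noCRS (SD, n = 3), with a log2 fold change of -0.35 ± 2.70 (SE) whose sign turned when any of CRS replicates 1 to 3 or noCRS replicate 3 was left out. Without CRS replicate 4 the CRS mean was 0, and the noCRS mean was 1.86 CPM once noCRS replicate 3 was left out. A gene on the opposite strand overlaps 3.81% of the Ptgs1 exon length.

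Among its most similar genes over the 7 libraries were P2ry12 (r = 0.944), a purine receptor that marks homeostatic microglia, Lpar4 (r = 0.942) and Extl2 (r = 0.937). P2ry12 measured 0.57, 0.094, 0 and 13.4 CPM in CRS replicates 1 to 4, and 0, 5.94 and 13.6 CPM in noCRS replicates 1 to 3. The 3 libraries with Ptgs1 were also the 3 with the most P2ry12. The 9 listed microglial markers summed to 84.4 to 124 CPM in CRS and 91.8 to 135 CPM in noCRS. Other markers of the list were distributed differently: Cx3cr1 was at 0, 0.031, 0 and 1.62 CPM in CRS and at 2.22, 0 and 5.14 CPM in noCRS, and Tmem119 was at 0 in all 3 noCRS libraries. Their part in the Ptgs1 levels was not tested.

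Expressed per kilobase of exon, so that levels of different genes can be compared, the cyclooxygenases together reached 1.96, 5.58, 3.52 and 8.16 CPM per kb in CRS replicates 1 to 4, against 0, 0.96 and 3.93 CPM per kb in noCRS replicates 1 to 3. The ranges overlapped. Ptgs2 made up all of the cyclooxygenase level in CRS replicates 1 to 3 and 37.4% of it in CRS replicate 4, and none of it in the noCRS replicates where any was detected. In noCRS replicate 1 neither cyclooxygenase gene had a count.

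Pla2g4a, the cytosolic phospholipase that releases arachidonic acid (chromosome 1, 149829618 to 149961290, minus strand), lies 138.7 kb from Ptgs2 and is read in the opposite direction. It measured 25.4, 32.3, 51.7 and 41.95 CPM in CRS replicates 1 to 4 and 38.7, 17.1 and 50.5 CPM in noCRS replicates 1 to 3. The groups overlapped almost fully, with means of 37.8 ± 11.5 CPM (SD, n = 4) and 35.4 ± 16.9 CPM (SD, n = 3) and a log2 fold change of 0.10 ± 0.41 (SE). The 95% interval of the fold, 0.55 to 2.06, bounds the change in either direction. Scaling by total counts turned the sign (log2 fold change -0.06), as did leaving out CRS replicate 3 (-0.11) or noCRS replicate 2 (-0.24).

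Ptgds, the lipocalin-type prostaglandin D synthase (chromosome 2, 25466709 to 25470046, minus strand), was the most abundant member in every library. It measured 983, 1502, 1102 and 568 CPM in CRS replicates 1 to 4, against 978, 815 and 929 CPM in noCRS replicates 1 to 3. The CRS libraries spanned the noCRS range on both sides. Their means were 1039 ± 385 CPM in CRS and 907 ± 83.6 CPM in noCRS (SD, n = 4 and 3), a 1.14-fold difference with a 95% interval of 0.72 to 1.81. The log2 fold change was 0.20 ± 0.29 (SE) and turned to -0.05 without CRS replicate 2 and to -0.07 with limma-voom.

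CRS replicate 4, lowest in Ptgds, was also lowest in summed oligodendrocyte markers, at 26988 CPM. The order was otherwise not the same, as CRS replicate 3 had the highest marker sum (53072 CPM) and CRS replicate 2 (49576 CPM) the most Ptgds. Leptomeningeal markers, another known source of Ptgds, summed to 15.5 to 54.8 CPM in CRS and 9.03 to 22.2 CPM in noCRS, with Col1a1 and Col3a1 at 0 in all 7 libraries. Dcn, of the same list, measured 34.0, 7.27, 16.2 and 15.5 CPM in CRS replicates 1 to 4 and 8.47, 0 and 0 CPM in noCRS replicates 1 to 3, and Col1a2 had counts in all 7 libraries. Choroid plexus and ependymal markers summed to 0 to 1.06 CPM in CRS and 0 to 0.13 CPM in noCRS. Their part in the Ptgds levels was not tested. The genes most like Ptgds were Zfp493 (r = 0.969), Bpgm (r = 0.958), which makes and degrades bisphosphoglycerate, Dnajc19 (r = 0.931), and Tmed10 (r = 0.926), a cargo receptor of the early secretory pathway.

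The prostaglandin E synthases are encoded by Ptges, Ptges2 and Ptges3. Ptges is the microsomal enzyme that is inducible together with Ptgs2 in inflamed tissue (chromosome 2, 30889471 to 30929863, minus strand). It measured 12.1, 7.02, 12.6 and 16.6 CPM in CRS replicates 1 to 4, against 15.2, 8.99 and 6.65 CPM in noCRS replicates 1 to 3. The groups overlapped, with means of 12.1 ± 3.94 CPM and 10.3 ± 4.44 CPM (SD, n = 4 and 3) and a log2 fold change of 0.23 ± 0.55 (SE). CRS replicate 2, highest in Ptgs2, was the lowest CRS library in Ptges.

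Ptges2, a membrane-associated synthase (chromosome 2, 32395896 to 32405772, plus strand), measured 150.2, 121, 108 and 104 CPM in CRS replicates 1 to 4, against 128, 86.5 and 101 CPM in noCRS replicates 1 to 3. The groups overlapped at 121 ± 21.0 CPM and 105 ± 21.0 CPM (SD, n = 4 and 3), a 1.15-fold difference with a 95% interval of 0.82 to 1.599. The width of that interval makes Ptges2, with Ptges3, the most closely measured of the members.

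Ptges3 encodes the cytosolic synthase also known as p23, a cochaperone of Hsp90 (chromosome 10, 128058954 to 128077272, plus strand). It measured 88.5, 105, 85.7 and 92.5 CPM in CRS replicates 1 to 4, against 65.9, 65.5 and 77.2 CPM in noCRS replicates 1 to 3. Every CRS library was above every noCRS library. The means were 93.0 ± 8.58 CPM and 69.6 ± 6.65 CPM (SD, n = 4 and 3), a 1.34-fold difference with a 95% interval of 1.02 to 1.76 and a log2 fold change of 0.42 ± 0.17 (SE). Since Ptges3 was picked with this comparison known, that interval is no test of a difference. Scaled by total counts alone, which shifted the median over all genes by -0.16 on the log2 scale, Ptges3 had a log2 fold change of 0.26 and its groups overlapped, with 80.3 CPM in CRS replicate 3 and 82.2 CPM in noCRS replicate 3. A processed pseudogene, Ptges3-ps, had 23 to 67 counts in CRS and 27 to 79 in noCRS, and how reads that match both copies were assigned was not stated.

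Ptgs2 and Ptges3 were thus 2 of the 8 members whose CRS libraries all lay above the noCRS libraries, where 10.1% of tested genes showed that pattern, and 0 members showed the opposite one, where 6.74% did. Nothing is read from those counts, since the set was chosen with them in view. Positive fold changes were seen in 7 of 8 members, beside 49.2% of all tested genes, and nothing is read from that count either. The median of the members was 0.21 on the log2 scale, also with Ptgs2 at its lower bound, beside -0.02 over all tested genes. Scaling by total counts alone shifted the median over all genes by -0.16.

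**Figure D3:**
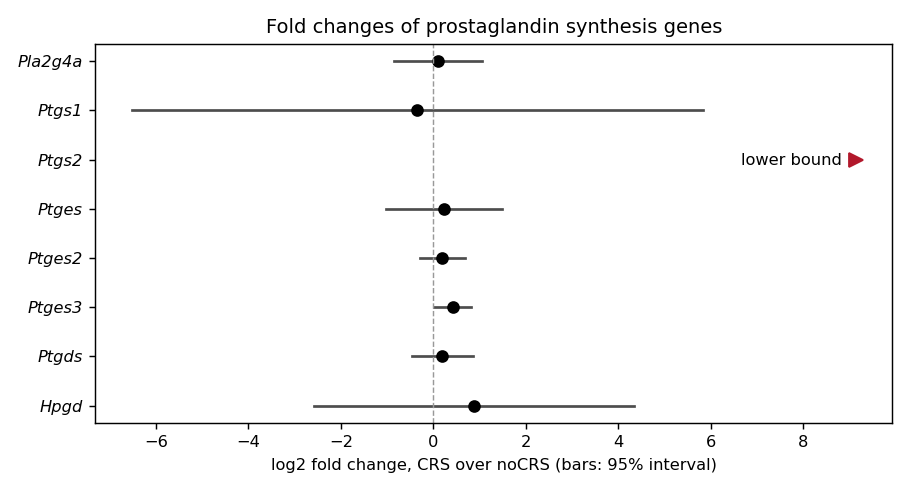
Log2 fold change, CRS over noCRS, of each gene in the edgeR fit (points) with its 95% interval (bars); the arrowhead for Ptgs2 marks the lower bound against a floor of 3 counts over the noCRS group. The intervals of Pla2g4a, Ptgs1, Ptges, Ptges2, Ptgds and Hpgd include 0, and those of Ptgs1 and Hpgd are the widest. The genes were chosen with this comparison known, so an interval that leaves out 0 is no test.

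Per kilobase of exon, the 3 prostaglandin E synthase genes kept a like order in both groups. Ptges3 averaged 41.9 ± 3.87 CPM per kb in CRS and 31.4 ± 3.001 CPM per kb in noCRS, Ptges2 23.9 ± 4.16 and 20.8 ± 4.15, and Ptges 3.07 ± 1.002 and 2.62 ± 1.13 (SD, n = 4 and 3). Ptges3 was above Ptges2 and Ptges2 above Ptges in each of the 7 libraries. The share of Ptges in their sum was 2.44 to 6.37% in CRS and 2.99 to 6.59% in noCRS. That of Ptges3 was 54.9 to 64.9% in CRS and 50.5 to 61.6% in noCRS, so the makeup of the prostaglandin E synthases overlapped between the groups.

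Hpgd, which encodes the dehydrogenase that inactivates prostaglandins (chromosome 8, 56294585 to 56321043, plus strand), varied more within the groups than between them. It measured 6.61, 30.8, 15.4 and 4.82 CPM in CRS replicates 1 to 4, against 3.76, 0 and 19.7 CPM in noCRS replicates 1 to 3. The groups overlapped, with means of 14.4 ± 11.9 CPM and 7.82 ± 10.5 CPM (SD, n = 4 and 3) and a log2 fold change of 0.88 ± 1.51 (SE). The noCRS mean was 1.88 CPM once noCRS replicate 3 was left out, and without CRS replicate 2 the CRS mean was 8.95 CPM. CRS replicate 2 was the highest library for Hpgd, Ptgs2, Ptges3 and Ptgds alike.

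Over all 7 libraries the order of levels per kilobase ran from Ptgds (596 CPM per kb) through Ptges3 (37.4), Ptges2 (22.5), Hpgd (6.88), Pla2g4a (5.76), Ptges (2.88) and Ptgs2 (2.02) to Ptgs1 (1.43). Ptgds stood clear of the rest, while from Ptges3 downwards the ranges of neighbours over the libraries overlapped. Within CRS, Ptgs2 (3.53 ± 1.52 CPM per kb) stood beside Ptges (3.07 ± 1.002) and below Pla2g4a (5.92 ± 1.80; SD, n = 4).

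The surrounding pathway was described through 8 gene lists with 82 genes in the table, 56 of them tested. With p-values adjusted over all genes (edgeR, Benjamini-Hochberg), 1 of the 56 rose and 0 fell, which is 1.79% beside 2.3% of all tested genes, and the median log2 fold change was 0.14 beside -0.02 over all genes. The lists were chosen with earlier results of these data known. Each fold change below is CRS over noCRS.

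Prostaglandin receptors were sparsely detected. Of 9 receptor genes, 5 had 0 counts in all 7 libraries (Ptger2, Ptgdr, Ptgfr, Ptgir and Tbxa2r) and 4 were tested. None of the tools called any (0 in edgeR, DESeq2 and limma-voom), and 0 had an unadjusted edgeR p below 0.05. Ptger4, a receptor for prostaglandin E coupled to cyclic AMP, measured 13.1, 11.2, 9.74 and 18.4 CPM in CRS replicates 1 to 4 and 9.99, 7.67 and 8.97 CPM in noCRS replicates 1 to 3, with overlap between the groups, and 16.5% of its exon length is shared with other genes.

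Of the other terminal synthases 4 were tested, with 0 calls in edgeR, DESeq2 and limma-voom, and 0 with an unadjusted edgeR p below 0.05. Cbr1, a carbonyl reductase that also acts on prostaglandins, averaged 74.9 ± 15.3 CPM in CRS and 80.4 ± 9.87 CPM in noCRS, and Prxl2b, a prostaglandin F synthase, 58.8 ± 9.02 CPM and 50.7 ± 9.53 CPM (SD, n = 4 and 3).

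The other arachidonate-releasing genes, phospholipases and the enzymes of the endocannabinoid route, had mostly negative fold changes. Negative fold changes were seen in 11 of 12 tested genes, while 49.2% of all tested genes had positive ones. The median of the list was -0.31 on the log2 scale. DESeq2 called 1, beside 9.14% of all genes, while edgeR and limma-voom called 0. An unadjusted edgeR p below 0.05 was seen in 1, beside 13.6% of all tested genes. The gene called by DESeq2 was Plaat3, a phospholipase chosen here after its values were seen, at 64.9, 56.8, 66.3 and 61.5 CPM in CRS and 124, 85.6 and 114 CPM in noCRS (edgeR adjusted p = 0.0782), with no overlap. Mgll, which frees arachidonic acid from the endocannabinoid 2-AG, measured 176, 72.4, 143 and 203 CPM in CRS and 228, 248 and 217 CPM in noCRS, also without overlap (edgeR adjusted p = 0.434). Abhd12, another hydrolase of that lipid, averaged 255 ± 30.6 CPM in CRS and 279 ± 26.8 CPM in noCRS. The summed level of the list was 758 to 912 CPM in CRS and 976 to 1097 CPM in noCRS. Oligodendrocyte precursor markers summed to 1257 to 1711 CPM in CRS and 2194 to 2612 CPM in noCRS. Of these markers 4 of 8 were called as lower by edgeR, beside 0.23% of all tested genes. Their part in these values was not tested.

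Transport and breakdown genes other than Hpgd gave 0 calls among 5 tested in edgeR, DESeq2 and limma-voom, and 0 had an unadjusted edgeR p below 0.05. Ptgr2, a prostaglandin reductase, averaged 92.6 ± 33.4 CPM in CRS and 60.1 ± 10.4 CPM in noCRS (SD, n = 4 and 3), with 32.0% of its exon length shared with a gene on the other strand. The competing lipoxygenase and leukotriene genes gave 0 calls among 4 tested in edgeR and in limma-voom, 1 in DESeq2, and 1 unadjusted edgeR p below 0.05. Over all genes, DESeq2 called 9.14%, and 13.6% had such an unadjusted p. Lta4h, the leukotriene A4 hydrolase, averaged 104 ± 29.5 CPM in CRS and 122 ± 17.6 CPM in noCRS, and Alox5 4.94 ± 2.95 CPM and 2.51 ± 0.41 CPM (SD, n = 4 and 3).

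**Figure D4:**
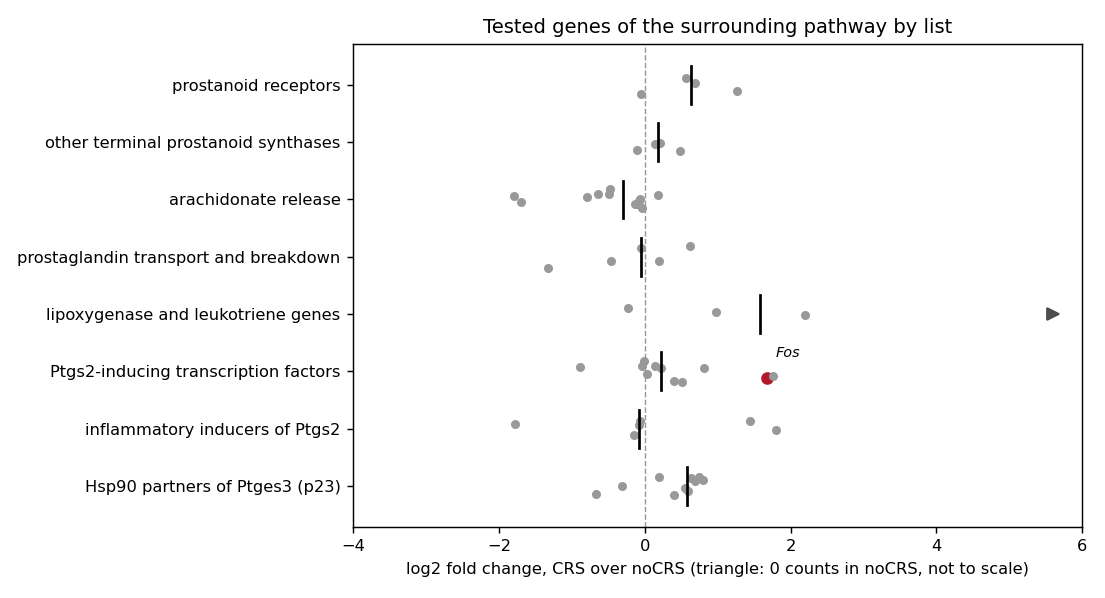
Log2 fold change, CRS over noCRS, of each tested gene in the 8 surrounding lists (grey points; red, called by edgeR), with a bar at the median of the list; the triangle marks a gene with 0 counts in noCRS and is not to scale. Fos is the only gene of these lists past the threshold, arachidonate-releasing genes lie mostly left of 0 and 8 of the 10 Hsp90 partners lie right of it. Of all tested genes, 49.2% had positive fold changes.

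Of the transcription factors known to act on the Ptgs2 promoter, 1 of 11 tested rose, Fos, the AP-1 subunit, at 10281 ± 3478 CPM in CRS and 3224 ± 326 CPM in noCRS (SD, n = 4 and 3; log2 fold change 1.67 ± 0.30 SE, edgeR adjusted p = 0.0302). DESeq2 and limma-voom each called 2 of the list, Fos and Egr1, and 2 had an unadjusted edgeR p below 0.05. The shares over all genes were 9.14% called by DESeq2, 3.58% by limma-voom and 13.6% at that unadjusted p. As higher, edgeR called 2.07%. The log2 fold change of Fos stayed between 1.52 and 1.87 under every alternative tried. Its edgeR call was lost when any library other than CRS replicate 2 was left out (adjusted p up to 0.136) and under scaling to total counts (edgeR adjusted p = 0.0538). Egr1 measured 2604, 739, 2337 and 1944 CPM in CRS replicates 1 to 4, and 516, 692 and 491 CPM in noCRS replicates 1 to 3, without overlap but short of the threshold (edgeR adjusted p = 0.0669). Within CRS these genes and Ptgs2 did not share an order, since CRS replicate 2, the highest in Ptgs2, had the lowest Fos (5302 CPM) and the lowest Egr1. Cebpb, whose factor family binds the TTGCGCAA palindrome, measured 16.3, 6.02, 16.6 and 16.03 CPM in CRS and 8.51, 10.8 and 9.77 CPM in noCRS. Cebpd, of the same family and list, went the other way. It measured 11.5, 8.27, 25.8 and 18.3 CPM in CRS and 12.1, 33.4 and 42.9 CPM in noCRS. The log2 fold changes were 0.50 for Cebpb and -0.88 for Cebpd, both with overlap between the groups. These genes were picked for that motif, after their values were seen. Other genes share 20.7% of the Cebpb exon length and 15% of that of Cebpd.

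Among the inflammatory inducers of Ptgs2, the cytokine genes Tnf and Il6 had 0 counts in all 7 libraries, and Il1b had 1 count in all, so they were at or under the floor at this depth. Of the list 6 genes were tested, with 0 calls in edgeR, DESeq2 and limma-voom, and 0 with an unadjusted edgeR p below 0.05. Nfkbia, the inhibitor that NF-kB itself induces, averaged 117 ± 18.6 CPM in CRS and 123 ± 16.9 CPM in noCRS, and Il6st, a cytokine coreceptor, 59.1 ± 17.6 CPM and 62.1 ± 17.9 CPM (SD, n = 4 and 3).

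The Hsp90 partners of p23 had a median of 0.57 on the log2 scale, with 8 of 10 positive, beside 49.2% of all tested genes. Ptges3 itself had 0.42. DESeq2 called 5 of the 10, limma-voom 3 and edgeR 0, and 6 had an unadjusted edgeR p below 0.05. Over all genes the shares were 9.14% called by DESeq2, 3.58% by limma-voom and 13.6% at that unadjusted p. The CRS libraries lay above the noCRS libraries in 6 of 10 partners, beside 10.1% of all tested genes, and in 3 of 10 when scaled by total counts, beside 7.6%. Hspa8, the constitutive Hsp70, measured 3741, 3731, 3305 and 2918 CPM in CRS and 2257, 1943 and 2187 CPM in noCRS (edgeR adjusted p = 0.0549). Hsp90aa1 measured 1617, 1850, 1555 and 1267 CPM in CRS and 788, 860 and 1059 CPM in noCRS (edgeR adjusted p = 0.0619).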

How the data were processed

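FastQC, HISAT2, HISAT, featureCounts, DESeq2 and the GRCm38 build are named, without versions, per the submitters' processing notes. Per the file headers, column names end as STAR output does, so the aligner was not settled. The deposited values are raw counts per gene, unstranded by the labelled transposase kit. Coordinates are those of the table. CRS and noCRS were compared by edgeR 4.0.16 under R 4.3.3 (default expression filter, TMM, quasi-likelihood test, no covariate, CRS over noCRS). Adjustment was by Benjamini-Hochberg over 17833 genes, with a threshold of 0.05. The fit was also run on simulated counts in which every gene had the smallest dispersion fitted to any gene. That run gives no error rate or power at the spread of these libraries. The biological coefficient of variation was 0.919. Log2 CPM used a prior count of 2. Members, lists and named genes were chosen with earlier results of these data known. Named were the 8 members, called genes and the 2 most abundant of each pathway list, and the 4 genes most like Ptgs2, Ptgs1 and Ptgds (at least 5 CPM in a group, no predicted models). Marker lists are given by sums, and a few genes named by this rule are not reported here. RefSeq promoters matched all 8 members. Alternatives were DESeq2 1.42.0, limma-voom with sample quality weights (limma 3.58.1; called limma-voom throughout), 3 scalings, 2 filters, each library left out, and the replicate number as a block. A gene with 0 counts in a group has no fitted fold printed.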

Additional observations from a re-analysis of the deposited data

Results flagged for a closer look

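Ptgs1 in CRS replicate 4 stood apart from the rest of its group, at 19.8 CPM where CRS replicates 1 to 3 were at 0, so that the gap was the whole range of the group. With CRS replicates 1 to 3 at 0, any count in CRS replicate 4 would have made the gap the whole range. The mark was thus set by those 0 counts and adds nothing to them. The same check on the other 7 members marked no CRS library. It marks about 1 in 20 groups by chance where values are normally distributed, a rate that does not apply to Ptgs1. The 3 noCRS libraries are too few for that check.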

How the results depend on the processing

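Over all genes 410 were called by edgeR, 1631 by DESeq2 and 639 by limma-voom, and 142 to 352 with single libraries left out, each of them but CRS replicate 2 lowering the count by over 1.5 times. The pathway lists had 1 call (Fos), 9 by DESeq2, 5 by limma-voom, 2 with a filter of at least 1 CPM in 3 libraries and 0 to 2 with single libraries left out. Over all genes the shares called were 2.3% in edgeR, 9.14% in DESeq2 and 3.58% in limma-voom. Scaled by total counts, the single call was Plaat3 in place of Fos. The log2 lower bound for Ptgs2 was 9.14, and 8.44 to 9.35 with single libraries left out, lower without a noCRS library because the floor then rests on fewer counts. Ptgs2 was the one member called under every alternative but the replicate block. Nothing is read from those calls, as the set was chosen with this comparison known and each alternative refits the same libraries. Same-numbered libraries did not deviate together (correlations of 0.015, -0.0032 and 0.023). With so few and such variable libraries, that cannot exclude that the numbers pair them. With the replicate block 12 genes, 0 pathway genes and 0 members were called, and Ptgs1 had a log2 fold change of -10.28. Ptges3 kept a positive fold change in all 15 alternatives, with 0.26 under total counts. For Hpgd, limma-voom gave 4.34 beside 0.88; the cause was not tested. Signs turned in 3 alternatives for Pla2g4a, 2 for Ptgds, 1 for Ptges and 4 for Ptgs1, and Ptgs1 could not be fitted without CRS replicate 4. For Ptgs1 and Hpgd the intervals allow changes of many-fold in either direction.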

Other observations

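Hpgds, the haematopoietic prostaglandin D synthase known from microglia, fell under the low-count filter and was as patchy as Ptgs1. It had 0, 0, 0 and 83 counts in CRS replicates 1 to 4, against 1, 105 and 0 counts in noCRS replicates 1 to 3. The library with most Ptgs1, CRS replicate 4, was the only CRS library with Hpgds, while noCRS replicate 3 had 496 counts of Ptgs1 and 0 of Hpgds. Abcc4, a transporter that exports prostaglandins, measured 0.72, 16.9, 0.50 and 6.72 CPM in CRS and 19.5, 11.6 and 15.5 CPM in noCRS, with overlap through CRS replicate 2. Cysltr2, a leukotriene receptor, was present in 3 of 4 CRS libraries, at 6.40, 0, 3.86 and 0.42 CPM, and had 0 counts in all 3 noCRS libraries. These genes were chosen after their values were seen.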
